A study of Canis lupus familiaris with 10 samples.

Results

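The MHC class II presentation genes of canine cutaneous histiocytoma (CCH) were described in early and late tumours. The members were the panel genes that encode the class II chains, their chaperones and their transcriptional activator, chosen by name: CD74, CIITA, DLA-DMA, DLA-DMB, DLA-DOA, DLA-DOB, DLA-DQA1, DLA-DQB1, DLA-DRA and HLA-DRB1. Of these 10 names, 9 were found among the 800 genes of the table, and all 9 passed the filter on low values. DLA-DOA was not analysed here. The symbol HLA-DRB1 is that of the table, and RefSeq lists the dog gene under the synonym DLA-DRB1.

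CCH is a benign tumour of Langerhans cells in canine skin, which in most cases regresses as lymphocytes enter it. The tumours were archived, formalin-fixed and paraffin-embedded (FFPE) material of privately owned dogs, graded by the scheme of Cockerell and Slauson, with 5 tumours of group 1 (early CCH) and 5 of group 3 (late CCH). The labels describe each late tumour, and no early tumour, as enriched in lymphocytes. Every tumour was from another dog, the breeds were mixed, and no treatment, allele or strain was stated for either group. The dogs of 4 early tumours were 0.5 to 5 years old, with the age of the dog of early 3 not stated, and those of the late tumours were 1.5 to 9 years old. Total RNA from whole cross sections, with adjacent tissue removed, was hybridised to the nCounter Canine IO Panel, which counts colour-coded probe barcodes without amplification.

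MHC class II molecules present peptides from endocytosed proteins to CD4+ T cells. An alpha and a beta chain pair in the endoplasmic reticulum with the invariant chain CD74, which blocks the groove until the complex reaches an endosome. There the DM dimer exchanges the remaining CD74 fragment for a peptide, and the DO dimer restrains DM, chiefly in B cells. CIITA switches these genes on as a group, constitutively in dendritic cells, Langerhans cells and B cells, and after interferon-gamma in many other cells. Activated canine T cells also carry class II molecules.

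Values are normalized counts, that is barcode counts that the authors scaled to positive controls and then to 20 housekeeping genes. They can be compared between tumours for a gene, but not between genes, because each probe captures its transcript with its own efficiency. Background was the mean plus 2 SD of the 8 negative probes of a tumour, expressed in normalized counts, and lay between 19.2 and 38.2. A fold change is the difference of mean log2(normalized count + 1), early minus late, from a limma fit across the 761 genes with a mean of at least 20. Calls required a change of at least 2-fold and a p of at most 0.05 after Benjamini-Yekutieli (BY) adjustment, and genes at or under 0.05 after the less strict Benjamini-Hochberg (BH) adjustment are counted as well.

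The stages differed in more than histology. Barcode counts recovered from the table summed to between 484696 and 823763 in early CCH and between 945399 and 1253083 in late CCH. Mean DV200, the share of RNA fragments over 200 nucleotides, was 68.5% ± 2.46 in the early tumours against 73.2% ± 2.09 in the late tumours (SD, n = 5 each). For late 5 the label and the study's sample sheet give different DV200 values, and that of the label was used here and in the fits with DV200. The ratio of the 2 strongest positive control probes was 2.09 to 2.17 in the early and 2.72 to 2.84 in the late tumours, without overlap. Background in normalized counts was 32.6 ± 6.37 in early against 21.9 ± 2.99 in late CCH (SD, n = 5 each). The study's sample sheet places the stages on separate cartridges and in separate RNA extraction batches, so stage and run cannot be told apart. Summed normalized counts of 10 T cell markers were 617 to 11573 in early and 17507 to 30429 in late CCH, and all 10 markers were above background in every late tumour. In whole tumour tissue, fewer cells of a type and less RNA per cell cannot be told apart.

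Among the class II genes, HLA-DRB1, the beta chain of DR, was the member with the smallest p for a stage difference. It was 1.97-fold higher in late CCH (95% interval 1.42 to 2.74). None of the 9 members (0) was called at the BY and 2-fold threshold in the limma fit, at which 11.2% of tested genes were called, 9.2% higher in late and 1.97% higher in early CCH. At an unadjusted p under 0.05 there were 2 members, HLA-DRB1 and CD74, against 45.3% of tested genes. HLA-DRB1 alone passed the BH threshold, higher in late CCH, which 35.7% of tested genes did in either direction and 27.3% in that direction. The mean was lower in early CCH for 7 of 9 members, against 59.9% of tested genes. The median log2 fold change of the members was -0.62, beside -0.18 over all tested genes. The median is the value of DLA-DQB1, and without that gene it was -0.60. With all 9 members it was -0.23 with geometric mean scaling, -0.31 with quantile normalization and -0.32 with DV200 as a covariate.

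**Figure D1:**
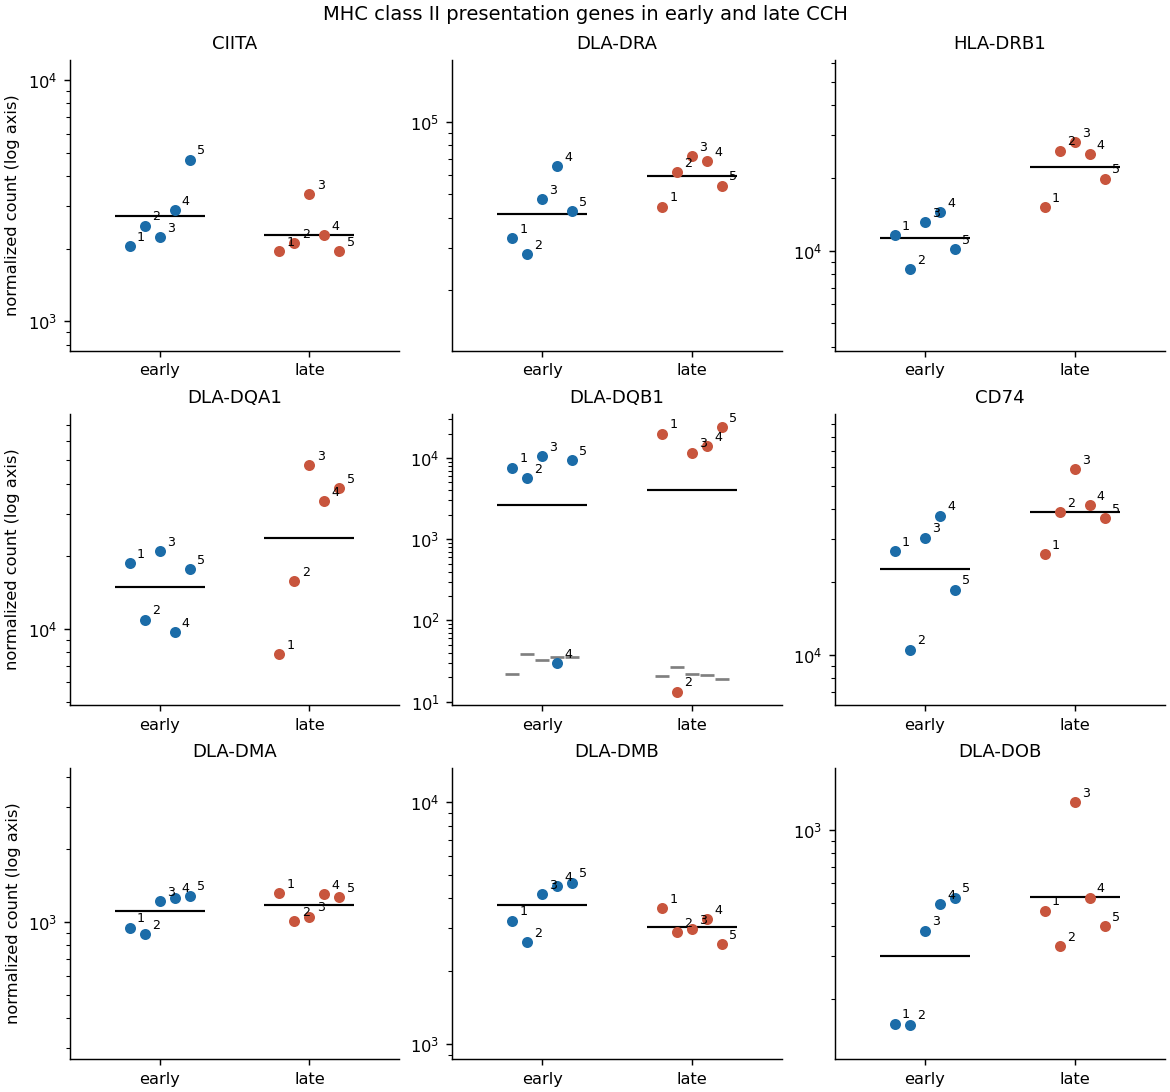
Normalized count (log axis, own range per panel) of the 9 class II genes in each tumour, with early CCH in blue and late CCH in red. Numbers are the tumour numbers, black lines are means of log2(normalized count + 1) and grey dashes in the DLA-DQB1 panel are each tumour's background. HLA-DRB1 was higher in all 5 late tumours than in any early tumour, and DLA-DQB1 was below background in early 4 and late 2.

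CIITA, the class II transactivator, read 2045, 2492, 2236, 2886 and 4669 in early 1 to early 5. In late 1 to late 5 it read 1955, 2109, 3372, 2272 and 1957. The stages overlapped, with the highest value in early 5 and the next highest in late 3. The log2 fold change was 0.26 (SE 0.24, BH adjusted p = 0.426, limma) and did not pass the test. It was 0.65 (adjusted p = 0.0608) with geometric mean scaling and 0.62 (adjusted p = 0.0629) with quantile normalization. It was 0.07 without early 5 and 0.40 without late 3.

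DLA-DRA encodes the nearly invariant alpha chain of DR. Its normalized counts were 32930, 28196, 47740, 65467 and 42529 in early 1 to early 5. The late tumours gave 44505, 61635, 71787, 68734 and 54387. Early 4 lay within the late range, whereas early 1, early 2 and early 5 were below every late tumour. The log2 fold change of -0.52 (SE 0.25, BH adjusted p = 0.130, limma) did not pass. It passed when early 4 was left out, at -0.68 (adjusted p = 0.0443), and under quantile normalization, at -0.56 (adjusted p = 0.00382). It was -0.13 (adjusted p = 0.715) with geometric mean scaling and -0.38 (adjusted p = 0.252) without early 2.

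HLA-DRB1, the polymorphic beta chain of the same dimer, read 11543, 8391, 13099, 14402 and 10126 in the early tumours. In the late tumours it read 15126, 25864, 28158, 25051 and 19877. It was the only member without overlap between the stages, a separation seen in 24.6% of tested genes (19.2% with late CCH higher), and late 1 was the late tumour closest to the early range. The log2 fold change was -0.98 (SE 0.21), with a BH adjusted p of 0.00723 and a BY adjusted p of 0.0521 in the limma fit. It stayed past the BH threshold without any single tumour, between -1.12 and -0.87, and it was called at the BY and 2-fold threshold when late 1 was left out. It missed the BH threshold with geometric mean scaling over all genes (-0.59, adjusted p = 0.0726), with quantile normalization (-0.49, adjusted p = 0.144) and with DV200 as a covariate (-0.63, adjusted p = 0.228).

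DLA-DQA1, the alpha chain of DQ, varied widely among the late tumours. Its values were 18712, 10930, 20925, 9696 and 17684 in early 1 to early 5. They were 7866, 15727, 47759, 33717 and 38317 in late 1 to late 5. Late 3, late 4 and late 5 exceeded every early tumour, while late 1 was the lowest of all 10. The log2 fold change was -0.68 (SE 0.48, BH adjusted p = 0.295, limma). Single tumours moved it, to -1.07 (adjusted p = 0.0516) without late 1 and to -0.42 (adjusted p = 0.512) without late 3, and it was -0.29 with geometric mean scaling.

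DLA-DQB1, the beta chain of DQ, fell into a high and a background range within each stage. Early 1, early 2, early 3 and early 5 read 7548, 5602, 10558 and 9423, and early 4 read 29.65. Late 1, late 3, late 4 and late 5 read 19832, 11554, 14068 and 23821, and late 2 read 13.27. The low readings correspond to 18 barcode counts in early 4, where background was 21.4 counts, and to 12 in late 2, where it was 24.4. DLA-DQA1 was clearly detected in both of these tumours. Whether the probe binds every DLA-DQB1 allele was not tested, so a reading at background is not a measure of absent expression. The other 4 late tumours were all above the other 4 early tumours, which is given as a description because the low tumours were set aside for their values. With all tumours, the log2 fold change of -0.62 (SE 2.29, 95% interval -5.71 to 4.47, BH adjusted p = 0.857, limma) leaves the size and direction undetermined. Without early 4 it was 0.99, and without late 2 it was -2.65.

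CD74, the invariant chain, read 26803, 10460, 30537, 37557 and 18554 in early CCH. Late CCH gave 26061, 38780, 58585, 41552 and 36719. Early 2 was the lowest and late 3 the highest tumour, and 3 late tumours exceeded every early tumour. The log2 fold change of -0.78 (SE 0.35, BH adjusted p = 0.104, limma) did not pass. It was -0.51 without early 2, -0.39 with geometric mean scaling and -0.22 with DV200 as a covariate.

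DLA-DMA varied least of the members within each stage, with an SD of log2 values of 0.25 in early and 0.18 in late CCH. The SD of DLA-DMB was 0.35 and 0.19. DLA-DMA read 947, 891, 1219, 1262 and 1283 in the early and 1318, 1007, 1052, 1300 and 1265 in the late tumours. DLA-DMB read 3237, 2627, 4164, 4484 and 4640 in the early and 3640, 2895, 2980, 3287 and 2578 in the late tumours. The stages overlapped for both genes, and early 3, early 4 and early 5 were above every late tumour for DLA-DMB. The log2 fold changes were -0.09 (SE 0.16, BH adjusted p = 0.674, limma) for DLA-DMA and 0.29 (SE 0.18, BH adjusted p = 0.238, limma) for DLA-DMB. DLA-DMA was higher in early CCH under geometric mean scaling (0.30) and quantile normalization (0.29), without passing the test. DLA-DMB passed the BH threshold under these scalings, at 0.68 (adjusted p = 0.0236) and 0.60 (adjusted p = 0.0245).

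DLA-DOB, the beta chain of the DM inhibitor DO, read 158, 156, 382, 491 and 523 in early 1 to early 5. The late tumours gave 463, 331, 1299, 523 and 399. Early 1 and early 2 were the lowest, and late 3 stood far above the other late tumours. The log2 fold change was -0.82 (SE 0.47, BH adjusted p = 0.200, limma). It was -0.49 (adjusted p = 0.381) without late 3 and -0.43 with geometric mean scaling. Late 3 also had the highest sum of 9 B cell markers, 10926, while sums were 2346 to 3734 in early CCH and from 2094 in late CCH. The part of B cells in the DLA-DOB value was not tested.

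**Figure D2:**
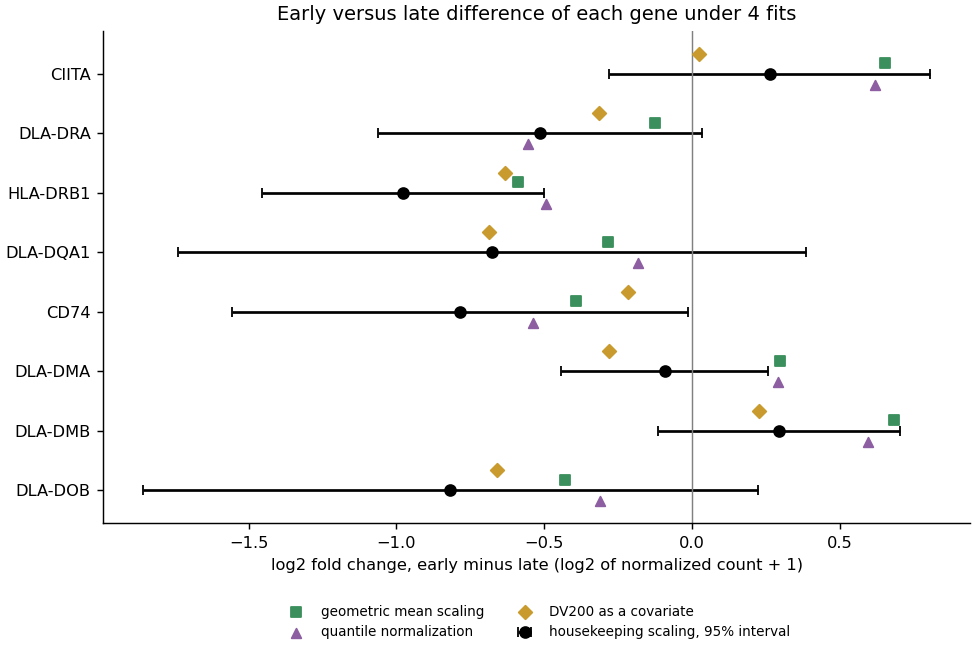
Log2 fold change (early minus late) of 8 class II genes on the x axis, with black points and 95% intervals for housekeeping scaling and coloured marks for geometric mean scaling, quantile normalization and DV200 as a covariate. DLA-DQB1 is left out because its interval runs from -5.71 to 4.47. HLA-DRB1, CD74, DLA-DRA, DLA-DQA1 and DLA-DOB lay below 0 in all 4 fits, CIITA and DLA-DMB above 0, and DLA-DMA changed side.

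Scaling moved the whole panel. Over all tested genes the median log2 fold change was -0.18 with the deposited housekeeping scaling and 0.21 with geometric mean scaling or quantile normalization. Relative to that median, HLA-DRB1 was at -0.80, -0.79 and -0.70 in the same order. CD74 was at -0.61, -0.60 and -0.74. DLA-DRA was at -0.34, -0.33 and -0.76. DLA-DOB was at -0.64, -0.63 and -0.52, and DLA-DQA1 at -0.50, -0.49 and -0.39. DLA-DQB1, of undetermined direction, was at -0.44, -0.44 and -0.58. CIITA was on the other side of the panel median, at 0.44, 0.45 and 0.41, and so was DLA-DMB, at 0.47, 0.48 and 0.39. DLA-DMA was near the panel median, at 0.08, 0.09 and 0.08. The DR chains, CD74, DLA-DOB and DLA-DQA1 lay on the late side of the panel, and CIITA and DLA-DMB on the early side. Geometric mean scaling applies a common factor to all genes of a tumour, so it leaves these positions nearly fixed. Only quantile normalization could have changed them, and these relative positions were not tested.

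Ratios of class II genes within a tumour do not depend on its scaling factor. They can still carry a difference in probe response between runs, such as that of the positive controls, whose part in the ratios was not tested. The log2 ratio of HLA-DRB1 over DLA-DRA, the chains of DR, was -1.51, -1.75, -1.87, -2.18 and -2.07 in early 1 to early 5. It was -1.56, -1.25, -1.35, -1.46 and -1.45 in late 1 to late 5. Only early 1 lay within the late range. The beta chain was lower relative to the alpha chain in early CCH by 0.46 on the log2 scale (exact two-sided permutation p = 0.0159, BH adjusted over 6 ratios p = 0.0317). The adjusted p rose to 0.0635 in 8 of the 10 comparisons that left out a tumour.

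The DM chains separated the stages as a ratio although neither did alone. The log2 ratio of DLA-DMB over DLA-DMA was 1.77, 1.56, 1.77, 1.83 and 1.85 in the early and 1.46, 1.52, 1.50, 1.34 and 1.03 in the late tumours. All early tumours were above all late tumours. The stage means, 1.76 ± 0.12 and 1.37 ± 0.20 (SD, n = 5 each), differed by 0.39 (exact permutation p = 0.00794, adjusted p = 0.0238). With 5 tumours against 5, 0.00794 is the smallest p this test can give.

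DLA-DOB relative to DLA-DMB was lower in early CCH. The log2 ratio of DLA-DOB over DLA-DMB was -4.35, -4.06, -3.44, -3.19 and -3.15 in the early and -2.97, -3.13, -1.20, -2.65 and -2.69 in the late tumours. The stages did not overlap, though early 5 and late 2 were close. The means, -3.64 ± 0.54 and -2.53 ± 0.77 (SD, n = 5 each), differed by -1.11 (exact permutation p = 0.00794, adjusted p = 0.0238), and by -0.78 without late 3. Relative to the other DM chain, DLA-DMA, a comparison chosen after seeing the data, the stages overlapped (-2.58 to -1.29 in early and -1.66 to 0.30 in late CCH), and the difference of -0.72 did not pass (exact permutation p = 0.198).

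The remaining ratios did not pass the test. CD74 over DLA-DRA differed by -0.27 (exact permutation p = 0.246, n = 5 per stage). DLA-DQA1 over DLA-DRA differed by -0.16 (exact permutation p = 0.778), with early 4 (-2.76) and late 1 (-2.50) lowest. DLA-DQA1 over DLA-DQB1 differed by -0.06 (exact permutation p = 0.976), and its SD was 3.25 in early and 4.40 in late CCH because of the tumours with DLA-DQB1 at background.

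**Figure D3:**
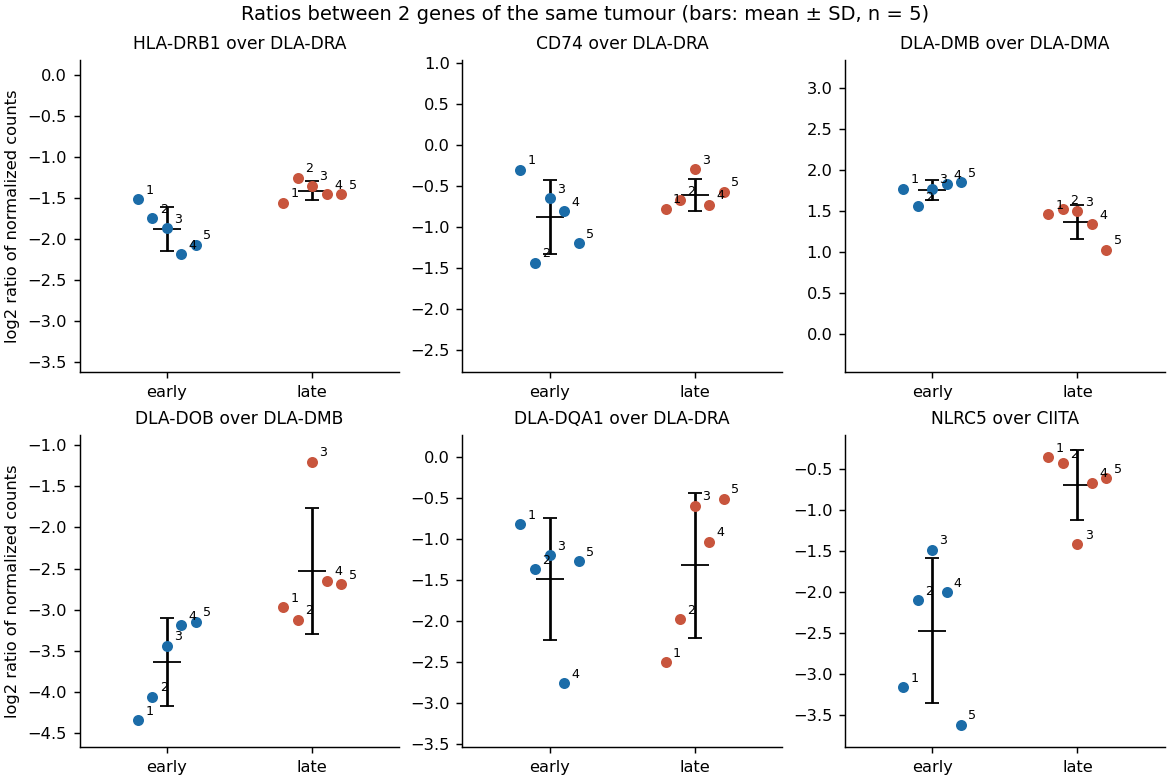
Log2 ratio of normalized counts of gene pairs within a tumour (y axis), early CCH in blue and late CCH in red, numbers for tumours and bars for mean ± SD (n = 5). The stages do not overlap for DLA-DMB over DLA-DMA, DLA-DOB over DLA-DMB and, chosen after its values were seen, NLRC5 over CIITA, and HLA-DRB1 over DLA-DRA overlaps through early 1.

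Some tumours were low or high for many members. Early 2 had the lowest value of all 10 tumours for 5 of 9 members, and late 3 the highest for 5 of 9. Late 1 was the lowest late tumour for 5 members, while early 5 was the highest early tumour for 4. The median SD of log2 values was 0.47 in early and 0.36 in late CCH, close to 0.45 and 0.38 over all tested genes.

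**Figure D4:**
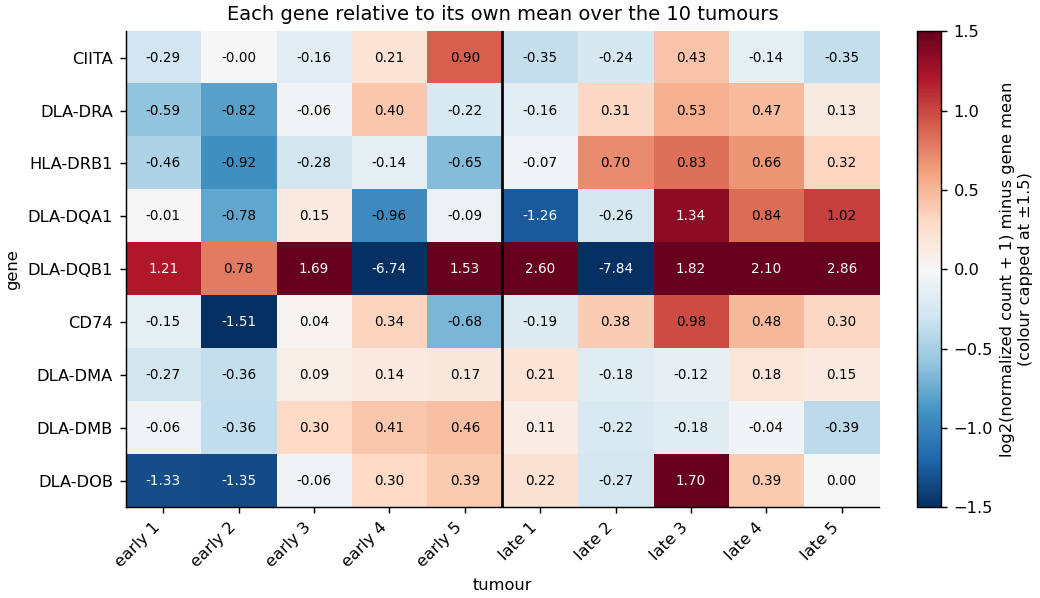
Log2(normalized count + 1) of each class II gene (rows) minus its mean over the 10 tumours (columns), with the number printed in each cell and the colour capped at ±1.5. Early 2 is below the mean or at it for every gene but DLA-DQB1, and late 3 is above it for all but DLA-DMA and DLA-DMB.

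No relation of CIITA with another member passed its test. Over 10 tumours and 8 relations, Pearson's r of log2 values ran from -0.19 with HLA-DRB1 to 0.49 with DLA-DMB (permutation p = 0.607 and 0.150, BH adjusted p = 0.910 and 0.724). Spearman's rho for these was -0.15 and 0.38 (permutation p = 0.684 and 0.280, each 0.789 after BH adjustment). Without early 5 and late 3, the tumours farthest from the CIITA median, r was -0.31 and 0.44. The nearest to a relation was with DLA-DOB on deviations from stage means, where r was 0.77 (permutation p = 0.00697, BH adjusted p = 0.0558). The pooled r with DLA-DOB was 0.46 and fell to 0.05 without those tumours, so the pooled r rests on them. The r of 0.77 was not computed without them, and late 3 stood apart from the other late tumours for both genes.

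Genes that raise or lower class II expression were listed together, inhibitors such as IL10 among them. Of the 13 that were tested, 4 passed BH adjustment higher in late and 2 higher in early CCH, beside 27.3% and 8.41% of all tested genes. IRF1, an interferon-induced activator of the CIITA promoter, read 528 to 1532 in early and 2453 to 3770 in late CCH, with no overlap (log2 fold change -1.70, SE 0.28, BH adjusted p = 0.00224, limma). IRF8 and the kinase JAK1 were also higher in late CCH, by -1.43 (adjusted p = 0.0150) and -0.48 (adjusted p = 0.0160) on the early minus late scale. JAK1 was at -0.09 with geometric mean scaling and -0.02 with quantile normalization and passed under neither.

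The interferon-gamma receptor chain IFNGR1 went the other way, from 3216 to 4646 in early and from 1571 to 2592 in late CCH (0.98, SE 0.18, adjusted p = 0.00325, limma). IL10, a cytokine known to lower surface class II on myeloid cells, was higher in early CCH as well (1.41, SE 0.44, adjusted p = 0.0300), though it passed in only 4 of 10 fits that left out a tumour (1.19 to 1.68). IFNG itself read 20.1 to 134 in early and 56.1 to 483 in late CCH and did not pass the test (-1.66, SE 0.62, adjusted p = 0.0599). With geometric mean scaling 3 genes of the list were higher in late and 5 in early CCH. Under that scaling 345 of 761 genes passed in either direction. With DV200 as a covariate none of the list passed, beside 45 of 761 genes. In that fit DLA-64, CD86, FLT3, CD68 and CD6 were the genes of all the lists described here that passed.

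NLRC5 is to class I genes what CIITA is to class II genes. It read 227 to 799 in early and 1259 to 1563 in late CCH (-1.51, SE 0.32, BH adjusted p = 0.00549, limma). The log2 ratio of NLRC5 over CIITA, chosen after the values were seen, is given as a description. It was -3.16, -2.10, -1.48, -2.01 and -3.62 in early 1 to early 5. It was -0.36, -0.43, -1.42, -0.67 and -0.61 in late 1 to late 5. The means differed by -1.78.

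Class I and peptide loading genes passed in 7 of 11 cases, each higher in late CCH, beside 27.3% of all tested genes. With geometric mean scaling 6 passed higher in late CCH and 2, TAPBP and PSMB9, higher in early CCH. Under that scaling 345 of 761 genes passed in either direction. DLA88, a classical class I heavy chain, read 4607 to 6482 in early and 9835 to 25021 in late CCH (-1.65, SE 0.25, adjusted p = 0.00167, limma). DLA-64, another class I heavy chain, read 999 to 1878 and 3431 to 4615 (-1.59, SE 0.19, adjusted p = 0.000753). Near-identical class I paralogs could share probe signal, so single heavy chains are uncertain. B2M, the shared light chain, had a log2 fold change of -0.06 (SE 0.23).

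Of 5 tested genes of the peptide processing list, which holds cathepsins and the lysosomal membrane proteins LAMP1 and LAMP2, 2 passed higher in late CCH, beside 27.3% of all tested genes. CTSS, the cathepsin that trims CD74, read 5298 to 7575 in early and 6262 to 11136 in late CCH, with overlap (-0.51, SE 0.17, BH adjusted p = 0.0427, limma). CTSW, a cathepsin of cytotoxic lymphocytes, had the larger change (-2.46, SE 0.68, adjusted p = 0.0186). CTSS passed in 2 of 10 fits that left out a tumour, and it did not pass with geometric mean scaling (-0.12) or quantile normalization (-0.25).

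The receptors that bind class II were both called, higher in late CCH, beside 9.2% of all tested genes. CD4 read 33.9, 200, 130, 89.0 and 39.8 in the early and 938, 318, 608, 996 and 378 in the late tumours (-2.86, SE 0.53, BY adjusted p = 0.0247, limma). LAG3, an inhibitory receptor for class II, read 43.4, 66.2, 160, 145 and 64.4 in the early and 288, 390, 223, 282 and 380 in the late tumours (-1.85, SE 0.37, BY adjusted p = 0.0326). Neither overlapped between the stages, as was the case for 19.2% of all tested genes with late CCH higher.

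Costimulatory genes split by direction, with 4 of 9 higher in late and 1 higher in early CCH past BH adjustment. Of all tested genes, 27.3% passed higher in late and 8.41% higher in early CCH. With geometric mean scaling the list gave 4 and 2, and 345 of 761 genes passed in either direction. The largest changes were in the checkpoint ligands PDCD1LG2 (-1.97, adjusted p = 0.00605, limma) and CD274 (-1.60, adjusted p = 0.0106). CD86, a ligand of CD28, was the exception, at 3962 to 5942 in early and 1806 to 2635 in late CCH (0.97, SE 0.16, adjusted p = 0.00224).

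**Figure D5:**
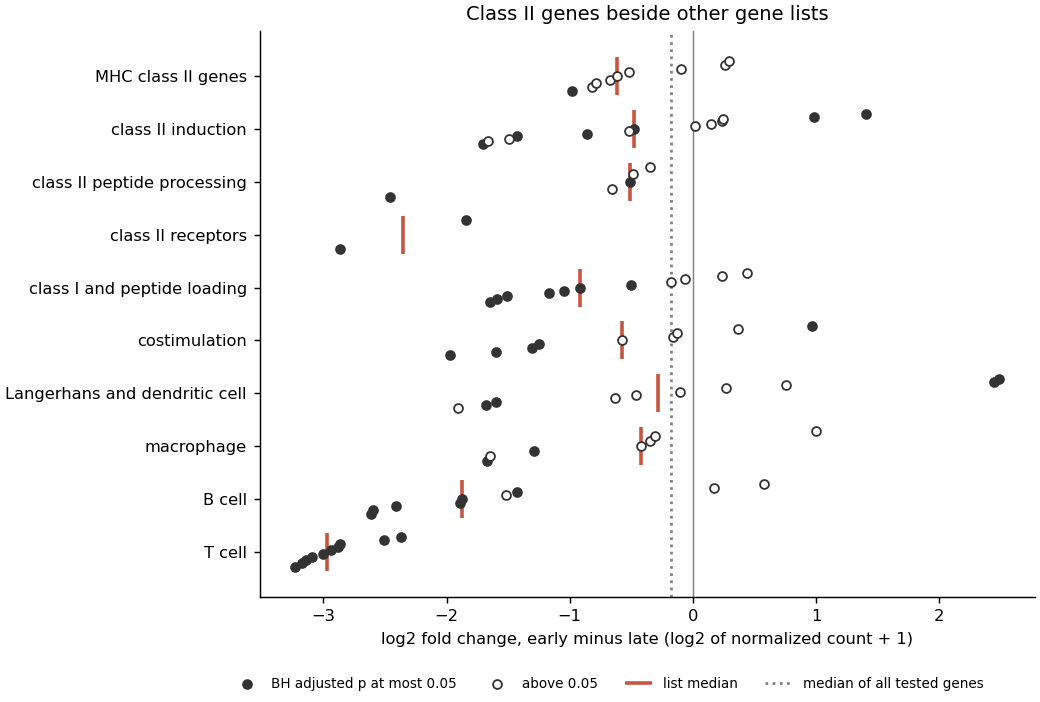
Log2 fold change (x axis, early minus late) of each tested gene in 10 gene lists (rows). Filled points passed a BH adjusted p of at most 0.05, red bars are list medians, and the dotted line is the median of all tested genes, -0.18. The class II genes lay between -0.98 and 0.29, whereas all 10 T cell markers were below -2.

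Markers of cells that can carry class II differed in direction, and their part in the class II values was not tested. Past BH adjustment, 2 of 10 tested Langerhans and dendritic cell markers were higher in early and 2 in late CCH. Of all tested genes, 8.41% and 27.3% were. With geometric mean scaling the markers gave 3 and 1, and 345 of 761 genes passed in either direction. FLT3, a dendritic cell growth factor receptor, and FCER1A, a chain of the IgE receptor, were higher in early CCH, by 2.49 (adjusted p = 0.00141, limma) and 2.44 (adjusted p = 0.00489). CCR7, the lymph node homing receptor, and XCR1, a receptor of cross-presenting dendritic cells, were higher in late CCH (-1.68, adjusted p = 0.0170, and -1.60, adjusted p = 0.0359). The defining Langerhans cell marker CD207 exceeded background in 1 of 5 tumours of each stage, with 17.98 to 38.55 in early and 7.56 to 22.3 in late CCH. CD1C, at 13.75 to 28 and 23.6 to 41.8, exceeded it in 0 of 5 early and 5 of 5 late tumours. The summed level of the dendritic list was 4567 to 7420 in early and 5030 to 7525 in late CCH.

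B cell markers passed in 6 of 9 cases, all higher in late CCH, beside 27.3% of all tested genes, among them CD79A (-2.61, adjusted p = 0.00406, limma) and CD79B (-2.60, adjusted p = 0.0165). With geometric mean scaling 4 passed, beside 345 of 761 genes in either direction, and with DV200 as a covariate 0, beside 45. With values raised to the highest background, an alternative chosen after seeing the data, CD79B was at -1.23 (adjusted p = 0.158). CD79B, a chain of the B cell receptor complex, was below background in every early tumour and above it in every late tumour. All 10 T cell markers passed, higher in late CCH, also with geometric mean scaling, led by CD6 (-3.23, adjusted p = 0.00103) and CD3E (-3.18, adjusted p = 0.0318). Of 7 macrophage markers, MSR1 (-1.67, adjusted p = 0.0369) and CD68 (-1.29, adjusted p = 0.00406) were higher in late CCH, a share close to the 27.3% of all tested genes. MRC1 was on the early side, at 1.00 (adjusted p = 0.0508), and passed with geometric mean scaling at 1.39 (adjusted p = 0.00651), where 1 marker passed in each direction. The summed macrophage level was 2911 to 7523 in early and 4163 to 8026 in late CCH. None of 3 keratinocyte markers passed, while 1 (TP63) was higher in early CCH with geometric mean scaling and 2 with quantile normalization. In these fits 345 and 324 of 761 genes passed in either direction.

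The genes whose pattern over the 10 tumours was most like the mean pattern of the 9 members included the complement gene C3 (r = 0.74), IRF8 (0.72), the natural killer receptor gene NCR1 (0.68) and the DNA sensor gene TLR9 (0.67). These values share libraries and scaling factors, and the low DLA-DQB1 readings of early 4 and late 2 are part of the mean pattern. Without DLA-DQB1 the closest genes were CD83, a marker of mature dendritic cells (0.87), DOCK2 (0.87), DDX5 (0.83), SPIB (0.81) and DLA-79 (0.81), and 0 of the 5 closest genes were shared.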

How the data were processed

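In nSolver 4.0, the authors normalized the barcode counts to positive controls and then to 20 housekeeping genes. The deposited values are this normalized signal (linear, 800 genes, 10 samples). No background subtraction was stated. Gene values were whole multiples of a step for at least 99.4% of genes per sample (tolerance 0.0051), which gave the recovered counts used for depth and background only. They summed to between 484696 and 1253083 per sample.

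Fold changes came from limma 3.58.1 in R 4.3.3 (lmFit, eBayes with an intensity trend) on log2(value + 1), over 761 genes with a mean of at least 20. Late CCH was the baseline, without covariates. Baseline, BY adjustment and thresholds followed the study, but the fit did not. With its own software the study found no gene past these limits in its nCounter data of the 2 stages, whereas 85 of 761 were called here. Fold changes on this scale understate low genes. Ratios were tested by exact permutation (two-sided) and correlations by permutation with 100000 resamples (scipy 1.17.1). P-values measure the spread between tumours.

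The members, the gene lists and the tests were chosen with earlier results of these data known. Named genes are the members, the induction, processing and receptor genes past BH with IFNG, IFNGR1, IRF1, CD4 and LAG3 in any case, the 2 largest changes in each direction past BH of the other lists, and the 5 genes most like the members. Some genes that this rule names are not reported here. NLRC5, B2M, TAPBP, PSMB9, LAMP1, LAMP2, MRC1, TP63, CD1C and CD207 were named after their values were seen, as were the 5 genes most like the members without DLA-DQB1. Alternatives were the pseudocount, the low-value filter, the scaling, the variance model, DV200, the replicate block and leaving out each tumour. A background floor, the likeness without DLA-DQB1 and the ratios of NLRC5 over CIITA and DLA-DOB over DLA-DMA were chosen after seeing the data. The fit was tested on simulated data. A planned description of promoter motifs was not run.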

Additional observations from a re-analysis of the deposited data

Results flagged for a closer look

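In 8 of 86 groups of 5 tumours (9.30%), an end value lay apart from the other 4 by more than Dixon's 95% limit. About 5% of independent, normally distributed groups exceed that limit. These groups share tumours, and genes were taken as normalized counts but ratios as log2, so the share was not compared with chance. Late 3 stood apart for CIITA (3372, others 1955 to 2272), for DLA-DOB (1299, others 331 to 523), for CD79B (481, others 24.8 to 123) and for the log2 ratio of DLA-DOB over DLA-DMB (-1.20, others -3.13 to -2.65). Early 4 stood apart for the log2 ratio of DLA-DQA1 over DLA-DQB1 (8.31, others 0.91 to 1.31) and of DLA-DQA1 over DLA-DRA (-2.76, others -1.37 to -0.82). Early 2 was low for DLA-DMB over DLA-DMA (1.56, others 1.77 to 1.85), and early 5 was high for TLR9 (94.7, others 47.6 to 61.1).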

How the results depend on the processing

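No member was called at the BY and 2-fold threshold under any alternative other than leaving out a tumour, where 0 to 1 were called. The number past BH was 2 with quantile normalization, 1 to 2 without single tumours, 0 with DV200 as a covariate and 1 elsewhere. With geometric mean scaling that 1 was DLA-DMB and not HLA-DRB1. Past BH were 272 of 761 genes with housekeeping scaling, 345 with geometric mean scaling, 324 with quantile normalization and 45 with DV200 as a covariate. Of 761 genes, 85 were called, against 0 with DV200 as a covariate, 1 with the replicate block and 39 without late 1. Outside the runs without single tumours, 82 of 90 member values kept their direction and side of the BH threshold.

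Among values that changed sign, none past its test, were DLA-DMA with geometric mean scaling (0.30) and quantile normalization (0.29), TLR9 (0.15 and 0.27) in the same order, and DLA-DQB1 without early 4 (0.99) and without late 5 (0.02), in a range without single tumours from -2.655 to 0.99. The DLA-DQA1 over DLA-DQB1 difference was 0.00796 with a pseudocount of 10. The correlation of CIITA with DLA-DQB1 was 0.11 with geometric mean scaling, and on deviations from stage means it was 0.0184 with DLA-DQB1, 0.12 with CD74 and 0.20 with HLA-DRB1. Without early 5 and late 3 it was -0.35 with DLA-DQA1 and -0.06 with DLA-DMA, and Spearman's rho and r differed in sign for CD74 (0.10 and -0.11) and DLA-DMA (-0.13 and 0.11). The cause was not tested.

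Leaving out single tumours ended BH calls of CTSS, IL10, XCR1, MSR1 and CD3E, which kept 2, 4, 4, 5 and 5 of 10, with ranges of -0.63 to -0.42, 1.19 to 1.68, -1.89 to -1.27, -2.01 to -1.24 and -3.82 to -2.25. IFNG passed without early 3 (-1.99) or late 3 (-2.07).

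With DLA-DMA in place of DLA-DMB, the DLA-DOB ratio differed by -0.72 (exact permutation p = 0.198). Without single tumours the ratio differences ran from -0.55 to -0.39 for HLA-DRB1 over DLA-DRA, 0.30 to 0.44 for DLA-DMB over DLA-DMA, -1.26 to -0.78 for DLA-DOB over DLA-DMB, -0.41 to -0.13 for CD74 over DLA-DRA, -0.46 to 0.16 for DLA-DQA1 over DLA-DRA, -1.51 to 1.83 for DLA-DQA1 over DLA-DQB1 and -2.02 to -1.49 for NLRC5 over CIITA.

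Same-numbered tumours came from different dogs, and their deviations correlated at -0.20, 0.16, 0.07, 0.06 and -0.07, with 1 of 5 closest to its own number, so the numbers do not pair them. With the replicate block 1 gene was called and 228 passed BH, and HLA-DRB1 had a BH adjusted p of 0.0230 (limma). Of the named genes, JAK1, CTSS, MSR1 and C3 no longer passed BH in that fit. By exact permutation within pairs the ratio differences were unchanged, with adjusted p of 0.25 for HLA-DRB1 over DLA-DRA (-0.46) and 0.1875 for DLA-DMB over DLA-DMA (0.39) and DLA-DOB over DLA-DMB (-1.11). The 5 pairs allow no p below 0.0625.

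Depth was lower in early CCH, and only DLA-DQB1 among the members had values at background.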
